A study of Ctenopharyngodon idella with 15 samples.

Results

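Gill transcripts of 3 3‰-treated symptomatic grass carp were compared with those of 3 untreated con grass carp, 6 fish of the 15 in the series, to describe which genes differed in fish that had become visibly damaged at the lower salinity. The 3‰-treated fish had lived in water with sea salt for 30 days, and those called symptomatic carried the label of an injured body, which at this salinity meant lost scales, ulcerated fins and bleeding. Con fish were untreated and labelled healthy, and all fish were 3 months old and uninfected. The labels write the salinity as 3% and the design of the series as 3‰, and the second was used here. The 3 3‰-treated asymptomatic fish, which were kept at the same salinity but labelled healthy, are given beside both groups as a further comparison. The fish were sorted by their own condition within 1 salinity, so salinity and body damage cannot be told apart in the comparison with con fish. RNA came from whole gill tissue, in which fewer cells of a type and less RNA per cell cannot be told apart, and no gill marker has a locus in the sources used here, so the tissue label was not checked against markers.

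The fish gill is both a respiratory and ion-transporting epithelium and a mucosal immune tissue. Its surface is guarded by mucus and secreted lytic proteins, by cytotoxic and granule-bearing leukocytes, and by cytosolic sensors of the NOD-like receptor (NLR) family, of which fish carry many copies. Cells also display peptides on MHC class I molecules: the proteasome cuts proteins into peptides, the transporter TAP carries them into the endoplasmic reticulum, and MHC class I presents them at the surface.

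Levels are given as FPKM, fragments counted relative to transcript length and library size, for replicate 1, 2 and 3 of a group in that order. A difference is the mean of log2(FPKM + 1) in symptomatic fish minus that in con fish, with its standard error (SE) from limma, and folds on this scale understate the change of genes at low level. A DEG is a gene with a fold of at least 1.5 and an unadjusted p under 0.05, and rose or fell is written of DEGs. The study used the same cutoffs of fold and p but does not say whether its p was adjusted. The adjusted p (Benjamini-Hochberg over all genes tested) stands beside each difference given with an SE and is mostly above 0.05. Some differences of named genes and of runs are given without it. Of the 50 named DEGs, 1 had an adjusted p below 0.05. Where a gene was no longer called without a fish, the difference without that fish follows in brackets. Genes are named by the locus the files give (scaffold, start and end), with a protein name where the paper labels that locus.

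The 6 libraries did not separate cleanly by group. Over 24385 genes the median absolute difference in log2(FPKM + 1) was 0.23 between symptomatic fish 1 and 2, while symptomatic fish 3 lay 0.39 and 0.35 from these and 0.24 from con fish 1. Con fish 3 lay 0.25 from symptomatic fish 1 and also 0.25 from symptomatic fish 2, beside 0.26 from con fish 2 and 0.38 from con fish 1. On the first principal component of the 6 fish, which held 43.4% of the variance, the symptomatic fish were at -59.8, -45.7 and 24.6 and the con fish at 64.0, 41.3 and -24.4, so that 1 fish of each group lay on the side of the other. On the second, with 21.2%, the symptomatic fish were at 0.07, 23.8 and 50.6 and the con fish at 2.85, -33.8 and -43.5. There symptomatic fish 3 and con fish 3 lay at opposite ends, each on the side of its own group. The labels give no batch, and whether these libraries stand under the right label was not tested, which touches every difference below. Counts and calls without them are therefore given beside the results. Total FPKM ran from 775422 to 852270 and the number of genes above 0 from 28982 to 29687 over the 6 fish.

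Of the 24385 genes tested, 1646 (6.75%) were DEGs, with 1060 (4.35%) higher in 3‰-treated symptomatic fish than in con fish and 586 (2.4%) lower. Of these DEGs, 841 of the up-regulated and 349 of the down-regulated genes had no overlap between the 3 fish of each group, a state that 15.3% of all genes showed, 9.57% upward and 5.7% downward. With Benjamini-Hochberg adjustment (limma) 10 genes (0.041%) remained, 8 higher (0.0328%) and 2 lower (0.0082%), beside 2767 genes (11.3%) with an unadjusted p under 0.05. The median difference over all genes was 0.03, and a rescaling by median ratios gave 986 up- and 665 down-regulated DEGs. Quantile normalization gave 924 and 707, a share of up-regulated genes of 56.7% in place of 64.4%, so the excess of up-regulated DEGs was smaller under both scalings.

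The fish that lay nearer to the other group bore on these counts. Without symptomatic fish 3 there were 1523 up- and 973 down-regulated DEGs, and without con fish 3 there were 1336 and 1077. Leaving out any of the other 4 fish gave between 847 and 928 up-regulated and between 443 and 487 down-regulated genes. Without symptomatic fish 3 and con fish 3 together, a choice made after seeing the data and one that widens the gap between groups by its construction, 2367 and 1724 genes were called, which included 809 of the 1060 and 459 of the 586. The number of genes past the adjusted threshold was 17 without symptomatic fish 3, 16 without con fish 3 and 56 without both, but 7 without con fish 1, 1 without con fish 2, 0 without symptomatic fish 1 and 3 without symptomatic fish 2. All 10 adjusted calls stayed DEGs at the unadjusted threshold in each of these fits.

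**Figure D1:**
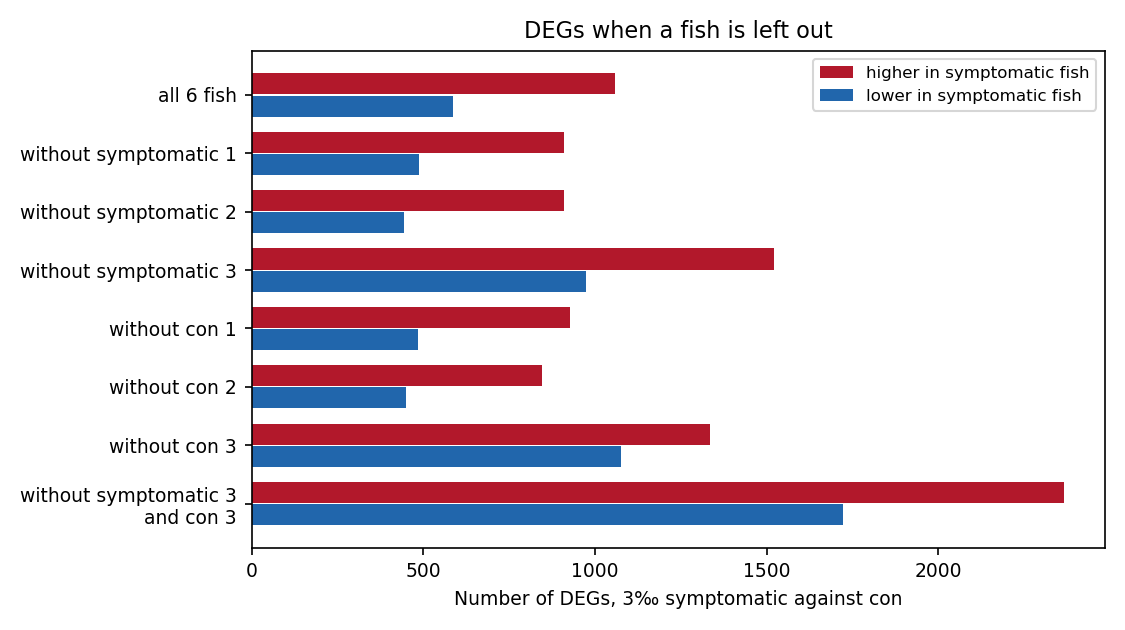
Number of DEGs between 3‰-treated symptomatic and con fish (x axis) with all 6 fish and with the named fish left out (rows), higher in symptomatic fish in red and lower in blue. The bars are longest where symptomatic fish 3, con fish 3 or both are left out, with 2367 higher and 1724 lower genes without both, against 1060 and 586 with all 6 fish.

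**Figure D2:**
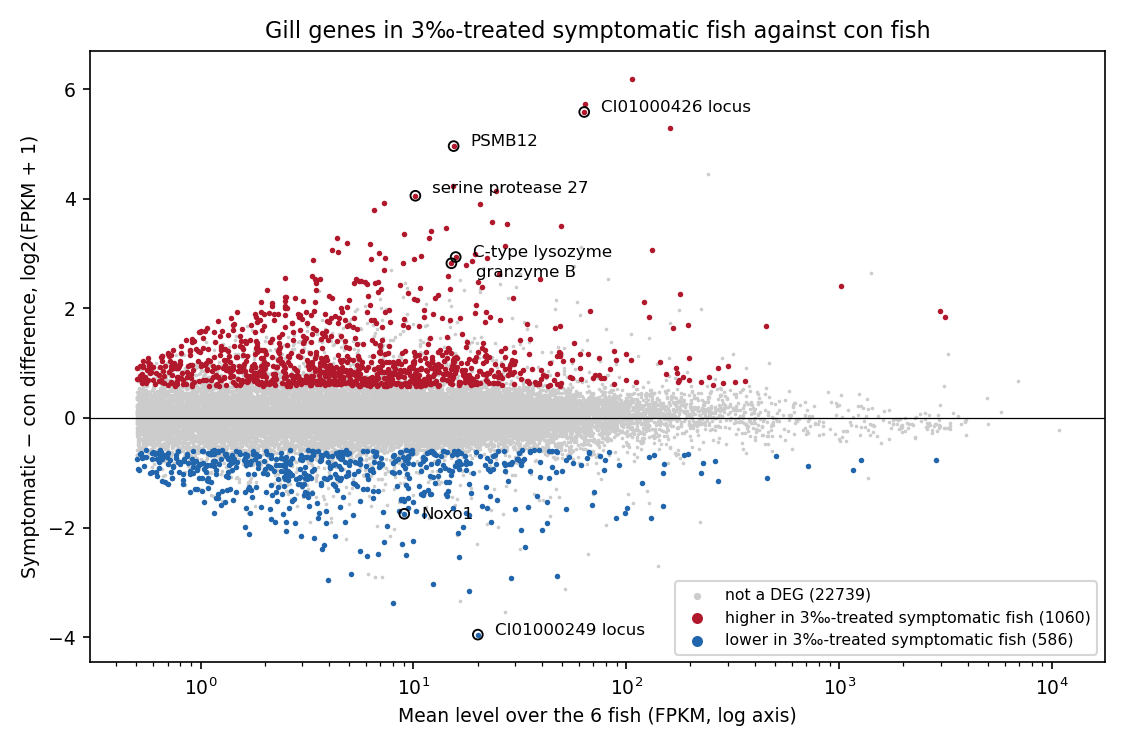
Difference between 3‰-treated symptomatic and con fish in log2(FPKM + 1) (y axis) against the mean FPKM over the 6 fish (x axis, log scale), 1 point for each of the 24385 genes tested, with 1060 genes higher in symptomatic fish in red, 586 lower in blue, and circles on 7 genes described in the text. DEGs of both directions lie at all levels.

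Changed genes were found at every level of expression. Of 2483 genes with a mean of 0.5 to 1 FPKM, 103 rose and 73 fell. Of 11118 genes at 1 to 10 FPKM, 629 rose and 341 fell, and of 9765 genes at 10 to 100 FPKM, 296 rose and 152 fell. Among the 1019 genes at 100 FPKM or more, 32 rose and 20 fell.

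Of the 1646 DEGs, 50 carry a protein name in the paper, 44 of them up-regulated and 6 down-regulated. This balance is not a finding, because 31 of the 44 names come from genes that the study displayed as raised by salinity in these same fish, and 13 from genes displayed in infected fish. Of the 6 down-regulated names, 4 come from infected fish. The other 2, Noxo1 among them, were displayed as lower at 3‰ than at 6‰ in fish that include the symptomatic ones here, so their direction is not independent evidence. The 30 named DEGs with no overlap and the largest differences are described below by what their proteins do, 29 up-regulated and 1 down-regulated, and the other 20 follow by their range. The names of these 50 were looked up only for genes that had passed, so same-named loci that did not pass are not seen. NLR copies, MHC class I-related genes and the paired loci of 1 protein name can be near-identical in sequence, and the sources do not say how fragments were shared between such copies.

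**Figure D3:**
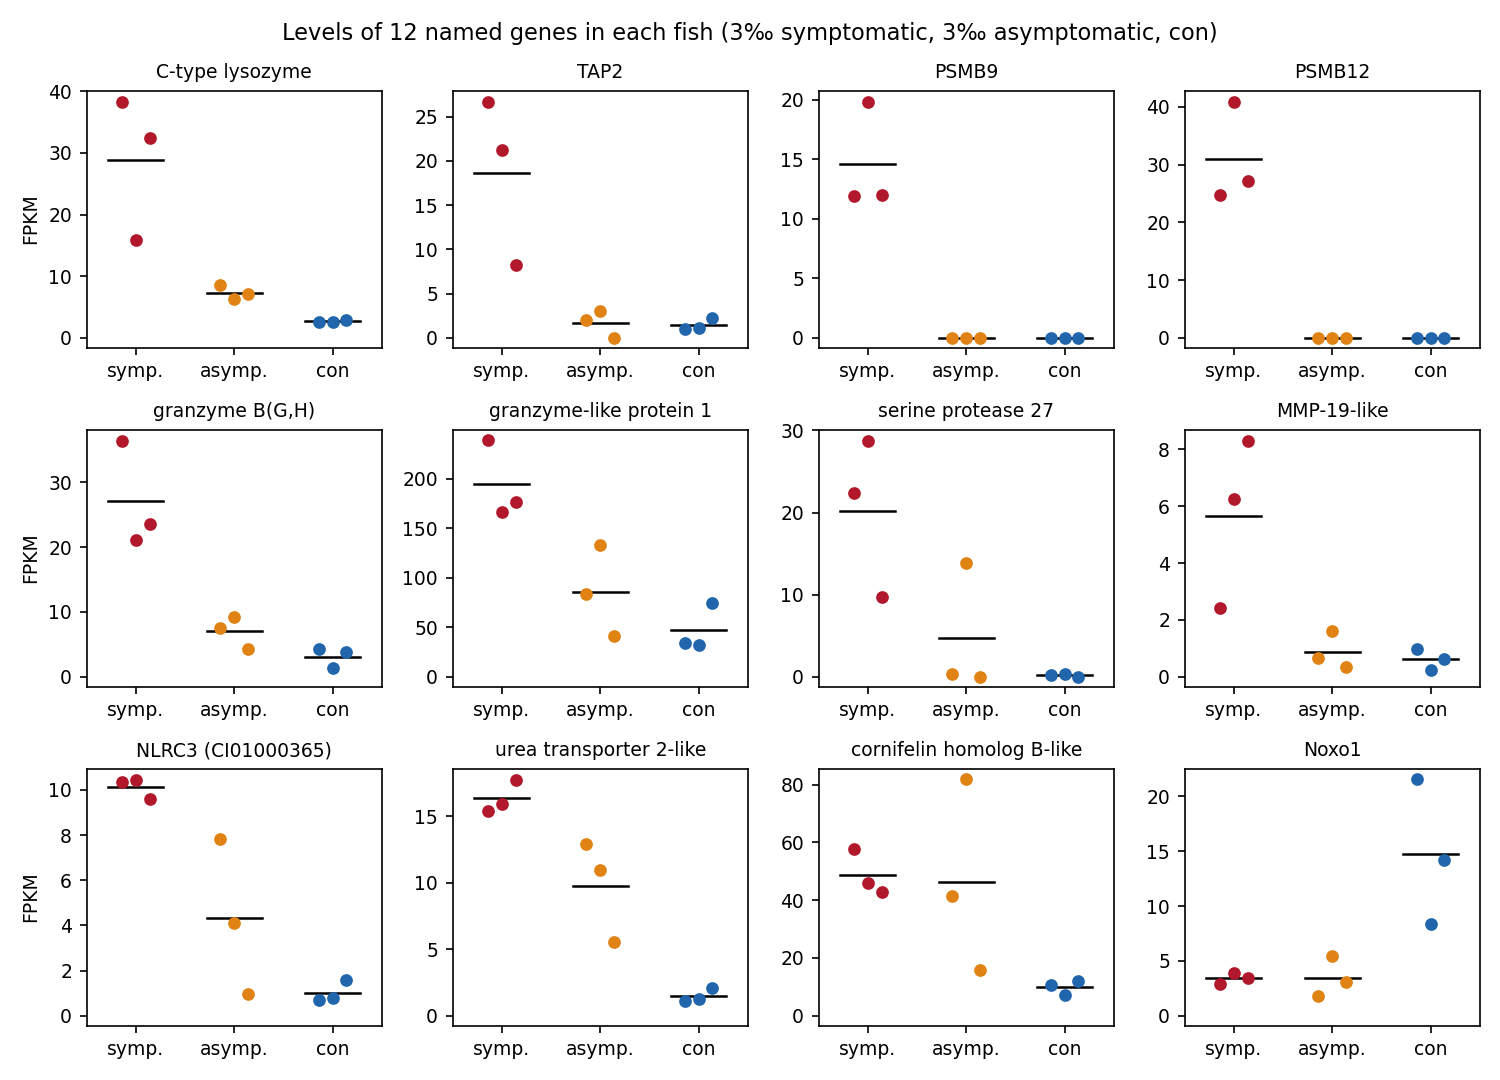
FPKM (y axis, from 0) of 12 named DEGs in each fish, with 3‰-treated symptomatic fish in red, 3‰-treated asymptomatic fish in orange and con fish in blue, and the mean of each group as a line. The 12 were taken from named DEGs chosen for having no overlap between symptomatic and con fish. By that choice every symptomatic fish lies above every con fish in 11 panels, and below in the panel of Noxo1.

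C-type lysozyme, a secreted enzyme that breaks the cell wall of bacteria, was the one named gene past the adjusted threshold. Its locus CI01000018_06021105_06025859 had 38.3, 15.9 and 32.4 FPKM in symptomatic fish, against 8.53, 6.34 and 7.05 FPKM in asymptomatic fish and 2.55, 2.58 and 2.90 FPKM in con fish. The 3 con fish were nearly level, the asymptomatic fish lay above them, and the symptomatic fish lay above both without overlap. Symptomatic fish differed from con fish by 2.94 ± 0.36 (SE, adjusted p = 0.015), a 7.66-fold higher level. Against asymptomatic fish the difference was 1.77 (adjusted p = 0.202), which was not below the adjusted threshold.

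Antigen processing genes rose side by side on 1 stretch of scaffold CI01000319. Proteasome 20S subunit beta 12 (PSMB12, CI01000319_05750029_05750431), a catalytic-type subunit of the proteasome, had 24.7, 40.8 and 27.2 FPKM in symptomatic fish and was listed at 0 in all 3 asymptomatic and all 3 con fish. Proteasome subunit beta type-9 (PSMB9, CI01000319_05746833_05748261), a subunit that replaces its housekeeping counterpart in the immunoproteasome, had 11.9, 19.8 and 12.01 FPKM in symptomatic fish and was likewise listed at 0 in the other 6. These genes were thus measured in each symptomatic fish and in no other fish of the 3 groups. No fold is given against groups listed at 0, and limma gave an adjusted p of 0.114 for PSMB12 and 0.123 for PSMB9 against con fish. The SE of that difference was 1.06 for PSMB12 and 0.89 for PSMB9. It draws on the spread within all 5 groups of the fit, the 6‰ fish included. Levels of these genes at 6‰ are not given here, so whether the pattern is particular to 3‰-treated symptomatic fish was not tested.

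Antigen peptide transporter 2 (TAP2, CI01000319_05742834_05745945), a chain of the peptide transporter, had 26.6, 21.2 and 8.20 FPKM in symptomatic fish, against 1.97, 3.00 and 0 FPKM in asymptomatic fish and 1.01, 1.06 and 2.28 FPKM in con fish. All symptomatic fish lay above all asymptomatic and con fish, and symptomatic fish 3 was the lowest of its group. The difference from con fish was 2.90 ± 0.87 (SE, adjusted p = 0.222) and that from asymptomatic fish 2.96 (adjusted p = 0.237), and with a pseudocount of 0.01 in place of 1 TAP2 was not called against con fish. Within 100 kb of the TAP2 start 17 genes were tested, and 5 rose, 1 fell and 11 did not pass, where 4.35% of all genes rose and 2.4% fell. The window was drawn around genes that had risen, TAP2, PSMB9 and PSMB12 being 3 of the 5, so nothing is read from this count. A locus with no name used here, starting 34.4 kb on, also rose, with 2.61, 2.66 and 8.83 FPKM in symptomatic fish, against 0.604, 0 and 0.235 FPKM in con fish. The locus that fell starts 27.6 kb before TAP2 and had 14.4, 13.1 and 5.87 FPKM in symptomatic fish, against 24.6, 23.5 and 27.6 FPKM in con fish. Asymptomatic fish 3 was listed at 0 for TAP2 and for 5 of the 6 loci that start 53.8 to 85.5 kb on, and at 0.163 FPKM for the other, where the remaining 8 fish had between 7.38 and 269.8 FPKM.

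**Figure D4:**
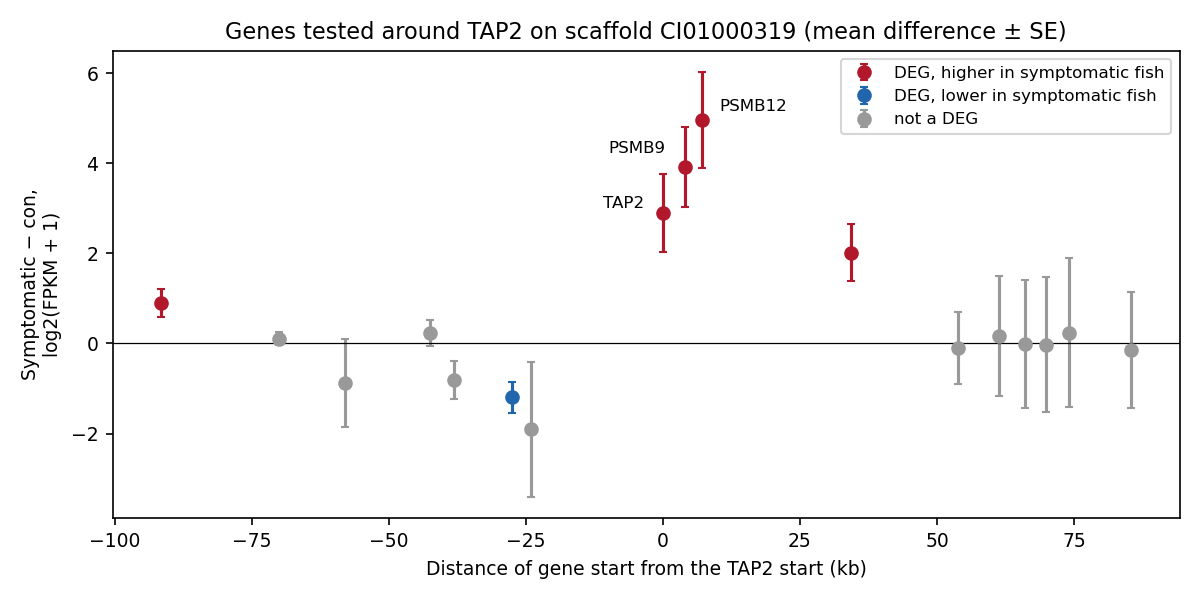
Difference between 3‰-treated symptomatic and con fish in log2(FPKM + 1) with its SE (y axis) for the 17 genes tested within 100 kb of the TAP2 start, by the distance of each gene's start in kb (x axis). The 5 up-regulated genes (red) include TAP2, PSMB9 and PSMB12 side by side, 1 gene (blue) was down-regulated, and 11 (grey) were not DEGs.

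The DEGs named MHC class I-related gene protein-like are neighbours on scaffold CI01000031, and both were higher in symptomatic fish. The locus CI01000031_00086179_00089751 had 5.17, 5.27 and 2.02 FPKM in symptomatic fish, against 7.33, 0.568 and 0 FPKM in asymptomatic fish and 0.320, 0 and 0.248 FPKM in con fish, and the difference from con fish was 2.05 ± 0.69 (SE, adjusted p = 0.272). Its neighbour CI01000031_00090167_00106114 had 2.48, 2.84 and 1.92 FPKM in symptomatic fish and 3.77, 0.233 and 0.975 FPKM in asymptomatic fish and was listed at 0 in all con fish (adjusted p = 0.27). At both loci asymptomatic fish 1 was above every symptomatic fish, and asymptomatic fish 2 and 3 were below.

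A butyrophilin subfamily 1 member A1-like gene (CI01000333_00668042_00686951), of a family of immunoglobulin-like surface proteins that in mammals modulate T cells, had 7.26, 9.23 and 5.04 FPKM in symptomatic fish, against 3.29, 12.6 and 1.21 FPKM in asymptomatic fish and 0.887, 0.596 and 3.59 FPKM in con fish. It differed from con fish by 1.73 ± 0.64 (SE, adjusted p = 0.321). It was no longer a DEG without con fish 1 (1.56), con fish 2 (1.44) or symptomatic fish 2 (1.56). Asymptomatic fish 2 had the highest level of the 9 fish.

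Granule proteases, serine proteases that cytotoxic lymphocytes and mast cells store and release, rose at 4 named loci, where 4.35% of all genes rose. Their names were looked up only for DEGs, so the number of such loci tested is not known and nothing is read from these 4. Granzyme B(G,H) and granzyme-like protein 1 are among the 30. Granzyme B(G,H) (CI01000030_03060378_03062683), of the family of enzymes that trigger death of target cells, had 36.4, 21.1 and 23.6 FPKM in symptomatic fish, against 7.46, 9.19 and 4.33 FPKM in asymptomatic fish and 4.24, 1.28 and 3.79 FPKM in con fish. The symptomatic fish overlapped with neither of the other groups, and the difference from con fish was 2.82 ± 0.56 (SE, adjusted p = 0.0994), 7.08-fold, with that from asymptomatic fish at 1.82 (adjusted p = 0.24). Granzyme-like protein 1 (CI01001325_00000309_00000862) was far more abundant, with 239.5, 167 and 177 FPKM in symptomatic fish, against 84.1, 133 and 40.7 FPKM in asymptomatic fish and 34.3, 32.2 and 74.3 FPKM in con fish. It differed from con fish by 2.12 ± 0.86 (SE, adjusted p = 0.372) and was no longer called without con fish 1 (1.95), con fish 2 (1.90), symptomatic fish 1 (1.96) or symptomatic fish 3 (2.17). The granzyme B locus lies on scaffold CI01000030 near other DEGs with protease names, among loci that mostly have no name here. From 50 kb before its start to 150 kb after it 14 genes were tested, and 5 rose and 0 fell, where 4.35% of all genes rose. As this window was drawn around a gene that had risen and that is 1 of the 5, nothing is read from the count. The 5 include the loci named mast cell protease 8-like, complement factor D-like protein and mast cell protease 1A-like, with differences of 0.66, 1.13 and 1.38. Mast cell protease 8-like was no longer called without con fish 1 (0.61) or symptomatic fish 2 (0.63), and complement factor D-like protein, named after a protease of the complement system, without con fish 3 (0.88) or symptomatic fish 1 (0.97).

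Serine protease 27, a trypsin-type protease described from mammalian epithelia, is the name of neighbouring DEGs on scaffold CI01000047, higher in symptomatic fish. The locus CI01000047_04398951_04431817 had 22.4, 28.7 and 9.67 FPKM in symptomatic fish, against 0.376, 13.8 and 0 FPKM in asymptomatic fish and 0.192, 0.351 and 0 FPKM in con fish. Con fish were at or close to 0, and of the asymptomatic fish only fish 2 was not. Against con fish the difference was 4.06 ± 0.81 (SE, adjusted p = 0.102) and that from asymptomatic fish 2.83 (adjusted p = 0.229). The locus CI01000047_04385029_04397861 had 16.9, 26.4 and 12.2 FPKM in symptomatic fish, against 2.84, 11.4 and 1.71 FPKM in asymptomatic fish and 1.70, 4.70 and 2.06 FPKM in con fish, a difference from con fish of 2.37 ± 0.50 (SE, adjusted p = 0.114) and from asymptomatic fish of 1.89 (adjusted p = 0.211). At both loci asymptomatic fish 2 stood out from its group, and all symptomatic fish but fish 3 at the first were above it.

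Matrix metalloproteinase-19-like (CI01000155_00031178_00032961), of the enzyme family that cleaves extracellular matrix, had 2.42, 6.24 and 8.30 FPKM in symptomatic fish, against 0.644, 1.61 and 0.361 FPKM in asymptomatic fish and 0.982, 0.254 and 0.637 FPKM in con fish. Every symptomatic fish was above every asymptomatic and con fish, with a difference from con fish of 1.94 ± 0.47 (SE, adjusted p = 0.141) and from asymptomatic fish of 1.77 (adjusted p = 0.211). Low choriolytic enzyme-like (CI01000026_10750149_10752108), an astacin-type metalloprotease of a family known in fish from hatching glands, had 322, 393 and 178 FPKM in symptomatic fish, against 189, 103 and 183 FPKM in asymptomatic fish and 59.2, 93.7 and 117 FPKM in con fish. The symptomatic and con fish did not overlap, and the difference was 1.69 ± 0.56 (SE, adjusted p = 0.268). Symptomatic fish 3, the lowest of its group, was just below asymptomatic fish 1 and 3, and the symptomatic minus asymptomatic difference was 0.88 (adjusted p = 0.565).

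NLR genes code for cytosolic sensors, among which, in mammals, NLRP3 builds inflammasomes and NLRC3 restrains signalling. The text of the paper gives 15 NLR genes by genome locus, all of which were tested here. Of these 3 rose, 0 fell and 12 did not pass, beside 4.35% of all genes called upward. The 3 are among the 4 loci that the study picked as raised by salinity in uninfected fish that include these, so their direction is not independent evidence. The median difference of the 4 loci was 1.80. The 11 loci picked on infected fish gave 0 DEGs and a median difference of 0.09, beside 0.03 over all genes tested, with 8 above 0 and 3 below. The text also gives 3 NLR genes by a new-gene number, which lie outside the 15 and were looked at after the values of the others were seen. The gene newGene_5350, picked on uninfected fish as well, had 0.563, 1.00 and 2.62 FPKM in symptomatic fish, against 2.06, 1.48 and 1.95 FPKM in con fish, and did not pass (difference -0.33 ± 0.33 (SE, adjusted p = 0.762)). The gene newGene_4697, picked on infected fish, did not pass either (difference 0.30 ± 0.35 (SE, adjusted p = 0.803)). The other, which the paper names NLRP12-like 1, was not among the genes tested here.

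The NLRC3 locus CI01000365_00436141_00445601 had 10.3, 10.5 and 9.60 FPKM in symptomatic fish, against 7.85, 4.13 and 0.959 FPKM in asymptomatic fish and 0.687, 0.771 and 1.59 FPKM in con fish. The symptomatic fish were within 1 FPKM of each other and above all asymptomatic and con fish, with a difference from con fish of 2.49 ± 0.54 (SE, adjusted p = 0.114) and from asymptomatic fish of 1.32 (adjusted p = 0.374). The locus CI01000095_03598784_03614858, which the paper labels NLRP3-like in a display and counts among its NLRC3-like genes in the text, had 2.87, 1.75 and 6.48 FPKM in symptomatic fish, against 0.240, 1.99 and 0.114 FPKM in asymptomatic fish and 0.0710, 0.136 and 0.184 FPKM in con fish. The groups of symptomatic and con fish did not overlap, the difference was 1.93 ± 0.63 (SE, adjusted p = 0.265), and without symptomatic fish 3 and con fish 3 together it was no longer called (1.56). The NLRC3-like locus CI01000057_04728914_04731946 had 17.5, 12.5 and 14.3 FPKM in symptomatic fish, against 16.8, 18.02 and 4.21 FPKM in asymptomatic fish and 2.08, 5.03 and 5.40 FPKM in con fish. It differed from con fish by 1.67 ± 0.67 (SE, adjusted p = 0.366) and was no longer called without con fish 1 (1.33), symptomatic fish 1 (1.55), symptomatic fish 3 (1.68) or both fish 3 (1.87). The fourth locus picked on uninfected fish, an NLRC3 copy on scaffold CI01000437 (CI01000437_00000063_00010815), had 11.9, 12.2 and 5.64 FPKM in symptomatic fish, against 2.15, 6.50 and 6.92 FPKM in con fish and did not pass (difference 0.86 ± 0.63 (SE, adjusted p = 0.654)), and con fish 2 and 3 were above symptomatic fish 3.

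**Figure D5:**
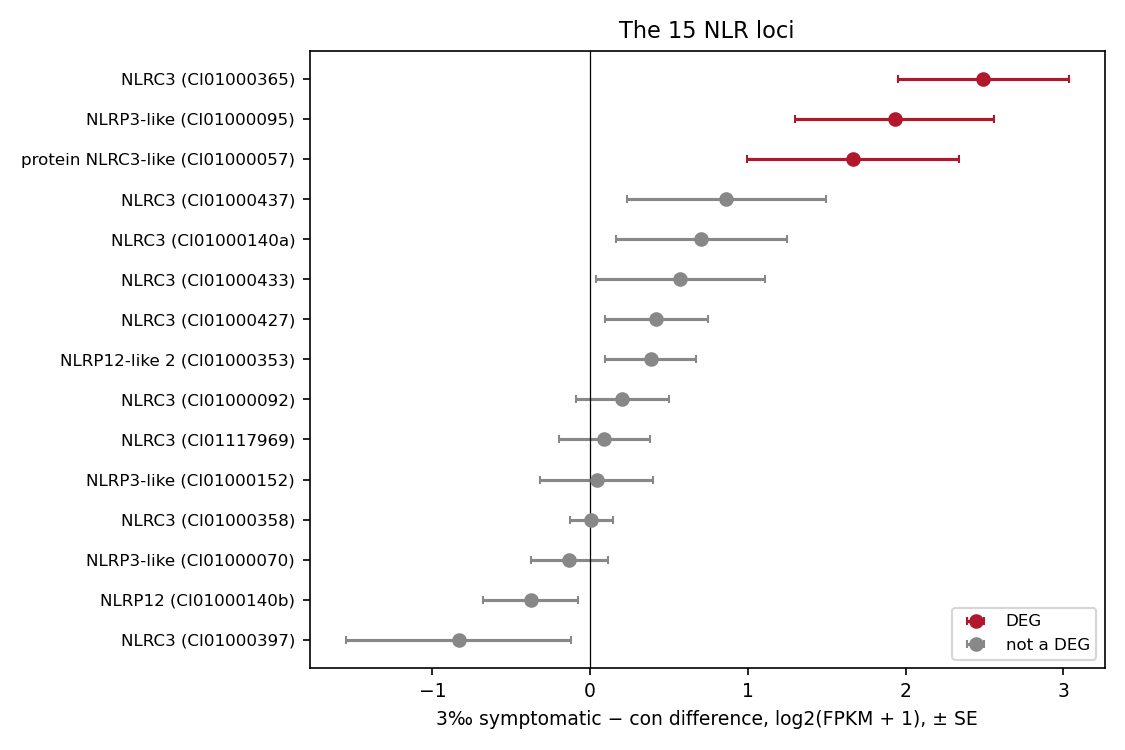
Difference between 3‰-treated symptomatic and con fish in log2(FPKM + 1) with its SE (x axis) for the 15 NLR genes that the text of the paper gives by genome locus (rows, with the scaffold; a and b mark both loci of scaffold CI01000140). The 3 DEGs (red) lie between 1.67 and 2.49, and the 12 others (grey) between -0.83 and 0.86.

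The other NLR loci of the 15 lay close to con fish or varied within groups. An NLRC3 copy on scaffold CI01000358 had 6.53, 6.39 and 7.45 FPKM in symptomatic fish, against 5.93, 6.39 and 8.03 FPKM in con fish, with the closest values of the 15 (difference 0.01 ± 0.14 (SE, adjusted p = 0.991)). The lowest difference was that of an NLRC3 copy on scaffold CI01000397, -0.83 ± 0.71 (SE, adjusted p = 0.715), with 4.68, 1.84 and 6.17 FPKM in symptomatic fish, against 4.74, 8.64 and 10.8 FPKM in con fish.

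Outside the 15 loci, 6 more named NLR loci were DEGs, 5 of them higher and 1 lower, where 4.35% of all genes rose and 2.4% fell. These names were looked up only for DEGs, so the number of such loci tested is not known and nothing is read from the count. The 3 described next were displayed by the study as raised by salinity in uninfected fish, so their direction is not independent evidence. NLRC3 at CI01044394_00001229_00001403 had 10.9, 5.41 and 20.3 FPKM in symptomatic fish, against 0.698, 2.57 and 0.418 FPKM in asymptomatic fish and 0.559, 0.0602 and 0.319 FPKM in con fish, a difference from con fish of 3.18 ± 0.82 (SE, adjusted p = 0.161) and from asymptomatic fish of 2.52 (adjusted p = 0.267). NLRC3 at CI01000537_00000001_00015829 had 7.41, 9.97 and 8.89 FPKM in symptomatic fish, against 18.9, 6.37 and 2.13 FPKM in asymptomatic fish and 2.22, 2.18 and 2.07 FPKM in con fish, a difference of 1.62 ± 0.51 (SE, adjusted p = 0.242), and asymptomatic fish 1 was the highest of the 9. NLRC3 at CI01000531_00019664_00026234 had 1.40, 2.16 and 2.42 FPKM in symptomatic fish and 1.78, 1.57 and 0 FPKM in asymptomatic fish and was listed at 0 in all con fish (adjusted p = 0.103). In these 3 genes every symptomatic fish was above every con fish, as the rule that chose them required. In the first every symptomatic fish was also above every asymptomatic fish.

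Among genes of the epithelium, transport and signalling, urea transporter 2-like (CI01000080_00840896_00847444), a channel that passes urea across membranes, had 15.4, 15.96 and 17.8 FPKM in symptomatic fish, against 12.9, 10.9 and 5.54 FPKM in asymptomatic fish and 1.10, 1.27 and 2.06 FPKM in con fish. The difference from con fish was 2.83 ± 0.46 (SE, adjusted p = 0.067), 7.09-fold, and the asymptomatic fish lay between the groups, with a symptomatic minus asymptomatic difference of 0.75 (adjusted p = 0.548). Cornifelin homolog B-like (CI01000163_00353630_00354334), related to a protein of the mammalian cornified cell envelope, had 57.7, 45.8 and 43.00 FPKM in symptomatic fish, against 41.5, 81.9 and 15.8 FPKM in asymptomatic fish and 10.6, 7.25 and 12.2 FPKM in con fish. Here both 3‰-treated groups lay above con fish, with a difference of 2.20 ± 0.58 (SE, adjusted p = 0.17) for symptomatic against con fish and 0.34 (adjusted p = 0.847) for symptomatic against asymptomatic fish.

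Tyrosine-protein kinase Fes/Fps (CI01000105_01838288_01843457), a signalling kinase known from myeloid, epithelial and vascular cells of mammals, was the most abundant of the 30 genes, with 698, 687 and 681 FPKM in symptomatic fish, against 560.5, 733 and 374 FPKM in asymptomatic fish and 156, 246 and 254 FPKM in con fish. The symptomatic fish were within 18 FPKM of each other, and the difference from con fish was 1.68 ± 0.32 (SE, adjusted p = 0.0986), 3.21-fold. The cocaine- and amphetamine-regulated transcript protein (CI01000345_01624956_01625588), a neuropeptide in mammals, was near the detection floor, with 0.715, 1.07 and 5.57 FPKM in symptomatic fish, against 0.791, 0.638 and 0 FPKM in asymptomatic fish and 0, 0 and 0.0518 FPKM in con fish. Its difference of 1.49 ± 0.47 (SE, adjusted p = 0.242) leaned on symptomatic fish 3, being 0.89 without it, and was no longer called without both fish 3 (0.91).

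Lymphocyte antigen 6B-like (CI01101730_00000408_00000946), of the Ly6 family of small surface proteins, had 18.3, 4.19 and 6.78 FPKM in symptomatic fish and 12.04, 7.61 and 0 FPKM in asymptomatic fish and was listed at 0 in all con fish (adjusted p = 0.138). A ribonuclease inhibitor-like gene (CI01101500_00002765_00002938), a name given to proteins of leucine-rich repeats, had 9.27, 14.6 and 10.7 FPKM in symptomatic fish, against 7.98, 2.92 and 3.85 FPKM in asymptomatic fish and 4.89, 0.918 and 0.394 FPKM in con fish and differed from con fish by 2.30 ± 0.56 (SE, adjusted p = 0.143). The neoverrucotoxin subunit beta gene (CI01000140_02353435_02356759), named after a pore-forming toxin of stonefish, had 5.91, 5.51 and 3.91 FPKM in symptomatic fish, against 4.88, 0.190 and 0 FPKM in asymptomatic fish and 0.205, 0.190 and 3.18 FPKM in con fish. Con fish 3 came close to the symptomatic fish, and the difference of 1.74 ± 0.78 (SE, adjusted p = 0.425) was no longer called when con fish 1 (1.44), con fish 2 (1.43), symptomatic fish 1 (1.64), symptomatic fish 2 (1.68) or symptomatic fish 3 (1.89) was left out, and it was called without both fish 3 (2.49).

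Genes named after mobile elements rose at low levels. The transposon TX1 ORF 1 locus CI01000331_00001155_00001877 had 4.53, 3.74 and 11.7 FPKM in symptomatic fish, against 1.15, 9.06 and 0.109 FPKM in asymptomatic fish and 0.375, 0.0528 and 0.188 FPKM in con fish, a difference from con fish of 2.53 ± 0.83 (SE, adjusted p = 0.268) that was no longer called without both fish 3 (2.09). DNA transposase THAP9 (CI01000054_12887165_12901376) had 2.18, 2.45 and 6.74 FPKM in symptomatic fish, against 1.42, 1.71 and 0.435 FPKM in asymptomatic fish and 0.204, 0 and 0.363 FPKM in con fish, a difference of 1.90 ± 0.39 (SE, adjusted p = 0.109). In both genes symptomatic fish 3 was the highest of its group. Meiotic nuclear division 1-like protein (CI01000300_10094312_10098589), which in other species acts in recombination at meiosis, had 20.1, 14.4 and 13.7 FPKM in symptomatic fish, against 13.99, 11.7 and 13.5 FPKM in asymptomatic fish and 7.13, 11.8 and 0 FPKM in con fish. Con fish 3 was listed at 0, and the difference of 1.84 ± 0.67 (SE, adjusted p = 0.316) leaned on it, being 0.72 without it. The gene was no longer called without symptomatic fish 1 (1.68), with only the 6 compared fish in the fit or with a pseudocount of 0.01, and con fish 2 was within 2 FPKM of symptomatic fish 3.

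Noxo1 (CI01000113_02585185_02588728), which organizes the NADPH oxidase NOX1 that makes superoxide in mammalian epithelia, was the down-regulated gene among the 30. It had 2.91, 3.89 and 3.41 FPKM in symptomatic fish, against 1.83, 5.44 and 3.10 FPKM in asymptomatic fish and 21.5, 8.34 and 14.2 FPKM in con fish. Both 3‰-treated groups lay below all con fish, with a difference of -1.75 ± 0.32 (SE, adjusted p = 0.0958) for symptomatic against con fish and 0.06 (adjusted p = 0.957) for symptomatic against asymptomatic fish. The 5 other named DEGs that fell were outside the 30 and are given here after their values were seen. Claudin-23 (CI01000304_04230808_04231542), of the family that seals tight junctions between epithelial cells, had 7.44, 12.9 and 8.67 FPKM in symptomatic fish, against 13.7, 16.4 and 14.5 FPKM in con fish (difference -0.60 ± 0.25 (SE, adjusted p = 0.372)), and it was no longer called without con fish 2 (-0.53), con fish 3 (-0.62), symptomatic fish 1 (-0.45) or symptomatic fish 3 (-0.55).

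The CD8 alpha chain (CI01000006_12468191_12470593), the co-receptor of cytotoxic T cells, had 19.3, 11.4 and 13.9 FPKM in symptomatic fish, against 17.7, 38.2 and 33.9 FPKM in con fish. The groups overlapped, and the difference of -0.92 ± 0.37 (SE, adjusted p = 0.359) was no longer called without con fish 2 (-0.72), con fish 3 (-0.80), symptomatic fish 2 (-0.76) or symptomatic fish 3 (-0.89). An NLRC3 copy (CI01000143_00549209_00576233) had 0.178, 0.595 and 0 FPKM in symptomatic fish, against 0.857, 0.858 and 1.18 FPKM in con fish, with a difference of -0.67 ± 0.18 (SE, adjusted p = 0.192) that was no longer called without symptomatic fish 3 (-0.51). A gastrula zinc finger protein (CI01000160_01001470_01008131) had 8.08, 3.12 and 7.53 FPKM in symptomatic fish, against 8.95, 12.5 and 10.3 FPKM in con fish, with a difference of -0.75 ± 0.28 (SE, adjusted p = 0.332) that was no longer called without con fish 2 (-0.64) or symptomatic fish 2 (-0.39). A GVINP1-like gene (CI01000262_00146195_00150607), named after the very large interferon-inducible GTPases, had 0.0776, 0.0915 and 0.138 FPKM in symptomatic fish, against 5.44, 9.36 and 0.0366 FPKM in con fish, so con fish 3 was as low as the symptomatic fish, and its difference of -1.90 ± 0.83 (SE, adjusted p = 0.41) was no longer called without con fish 1 (-1.57), con fish 2 (-1.23), or symptomatic fish 1 (-1.88), 2 (-1.89) or 3 (-1.92). Without con fish 3 it was -2.89.

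The other 15 named DEGs that rose had differences between 0.66 and 3.55. The highest, a further neoverrucotoxin subunit beta locus (CI01000310_00003244_00012743), overlapped between groups, with 69.7, 52.7 and 13.9 FPKM in symptomatic fish, against 0.184, 0 and 28.8 FPKM in con fish, and it was no longer called without con fish 1 (2.81), con fish 2 (2.69), symptomatic fish 1 (3.11) or symptomatic fish 2 (3.31). The rest comprised an interferon-induced very large GTPase 1 (1.49) and a GVINP1-like gene (0.96), the lymphocyte GTPase GIMAP8 (1.43), a lipocalin-like carrier (1.42), a further butyrophilin (1.40), the 3 protease loci of scaffold CI01000030 given above, trypsin-like (1.06), tudor domain-containing protein 3 (1.25), NLRP12-like (1.25) and NLRP1a-like (0.75), the cell death protease CASP8 (0.86) and a C-C motif chemokine receptor (0.69), with the difference from con fish in brackets. Of these 15 only 5 were called whichever fish was left out, the interferon-induced very large GTPase, the lipocalin, the butyrophilin, mast cell protease 1A-like and the tudor protein. GIMAP8 (0.85) and NLRP12-like (1.14) were lost without con fish 1, and NLRP1a-like without con fish 2 (0.52). Trypsin-like was lost without con fish 2 (0.96) or symptomatic fish 3 (0.96), and CASP8 without con fish 1 (0.73) or symptomatic fish 1 (0.73). The GVINP1-like gene was lost without con fish 3 (0.52), symptomatic fish 1 (0.58) or symptomatic fish 2 (0.98), and the chemokine receptor without con fish 1 (0.67), con fish 2 (0.56) or symptomatic fish 1 (0.50). Of all 50 named DEGs, 30 were called whichever fish was left out, and 20 were lost without at least 1 fish. Without both fish 3, 40 of the 50 were called and 10 were lost. Those lost and not given as such above include claudin-23 (-0.56), the CD8 alpha chain (-0.77) and the NLRC3 copy on scaffold CI01000143 (-0.44). The rest of these were mast cell protease 8-like (0.63), complement factor D-like protein (1.01) and trypsin-like (1.02).

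Most of the 10 genes past the adjusted threshold have no protein name in the sources used here, and all 10 had no overlap between groups. The unnamed locus that rose most, CI01000426_00003780_00016198, had 79.98, 206 and 85.1 FPKM in symptomatic fish, against 13.7, 17.99 and 24.7 FPKM in asymptomatic fish and 8.62, 0 and 0.361 FPKM in con fish, a difference from con fish of 5.58 ± 0.69 (SE, adjusted p = 0.015). The next, CI01092843_00000252_00000857, had 23.5, 51.2 and 14.9 FPKM in symptomatic fish, against 5.20, 3.58 and 5.54 FPKM in asymptomatic fish and 2.01, 0 and 0 FPKM in con fish, a difference of 4.24 ± 0.57 (SE, adjusted p = 0.0302). In both, symptomatic fish 2 was the highest and the asymptomatic fish lay between the groups without overlap.

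The unnamed locus that fell most, CI01000249_00110149_00111546, had 0.703, 4.74 and 0.378 FPKM in symptomatic fish, against 5.47, 8.39 and 8.30 FPKM in asymptomatic fish and 57.1, 33.3 and 24.1 FPKM in con fish, a difference of -3.95 ± 0.46 (SE, adjusted p = 0.015). The locus CI01000171_00732682_00786057 had 2.03, 0.972 and 2.12 FPKM in symptomatic fish, against 3.51, 3.55 and 5.17 FPKM in asymptomatic fish and 9.31, 6.35 and 6.28 FPKM in con fish, a difference of -1.63 ± 0.24 (SE, adjusted p = 0.0355). In both, the asymptomatic fish lay below all con fish and above all symptomatic fish. The adjusted p of the 10 genes ran from 0.015 to 0.0355.

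Some genes were listed at 0 throughout 1 group. In 20 of the 24385 genes tested all con fish were at 0 and all symptomatic fish at 1 FPKM or more. Of these, 5 are named and described above, with PSMB12 the highest at a mean of 30.9 FPKM. Of these 20, 4 were also at 0 in all asymptomatic fish and 4 were above 0 in all of them. The opposite state, all symptomatic fish at 0 and all con fish at 1 FPKM or more, was found in 4 genes, none of them named here, the highest at a mean of 7.92 FPKM in con fish. Genes of both states passed the filter on mean FPKM only through the group in which they were above 0, so nothing is read from these counts.

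Some DEGs of the same direction lay next to each other. Along the 20884 tested genes that the files place on a scaffold, there were 9 runs of 3 or more consecutive tested genes that all rose and 1 run that all fell, 33 genes in all. Over all genes tested 4.35% rose and 2.4% fell. The number of runs to expect from these shares was not worked out, so nothing is read from the count. The antigen processing run on CI01000319 held 4 genes over 37.4 kb. A run of 4 genes over 81.7 kb on scaffold CI01000162 began with a GVINP1-like gene, with differences from 0.96 to 2.18, and a run of 3 on scaffold CI01000269 over 112 kb ended with a butyrophilin, with differences from 1.40 to 1.90. The run that fell, of 3 unnamed genes over 32.1 kb on scaffold CI01000340, had differences from -1.83 to -0.69.

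Within the 3‰ salinity, symptomatic and asymptomatic fish were also compared directly, over the same 24385 genes. There were 582 genes higher and 647 lower in symptomatic fish, 2.39% and 2.65% of those tested and 5.04% together. Leaving out symptomatic fish 1 gave 1924 DEGs, over 1.5 times as many. With adjustment (limma, Benjamini-Hochberg) 0 genes (0%) passed, the smallest adjusted p being 0.147, beside 2896 genes (11.9%) with an unadjusted p under 0.05.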

How the data were processed

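Libraries of gill RNA were sequenced from 15 uninfected fish, 3 of each group and 1 library for each. Per the labels and files, the authors deposited FPKM values of 40116 genes for every fish, 32723 named by a genome locus and 7393 as new genes. TruSeq libraries and Trinity stand in the methods and NEBNext reagents in the labels. The aligner, build and counting were not given in the sources. From each file 1 line of annotation text was dropped. Low FPKM values shared no step of 1 read between libraries (the commonest ratio took 0.585% to 1.22% of low genes over 105 pairs). The paper gives the amount of clean data but no reads per gene, so count tests were not applied.

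The 24385 genes whose mean over the 6 compared fish reached 0.5 FPKM were tested on log2(FPKM + 1), a pseudocount of 1, by limma 3.58.1 in R 4.3.3. The model held 5 group means over all 15 fish (10 residual degrees of freedom, 2.65 from the prior). DEGs had a fold of at least 1.5 and an unadjusted p under 0.05, and adjusted p-values are Benjamini-Hochberg over all genes tested. An exact permutation test of 3 against 3 fish cannot go below p = 0.1 and was not used. The sources state no tank of a fish, so tank and salinity cannot be told apart.

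Names followed a rule: the 15 NLR genes that the text of the paper gives by locus, then DEGs whose locus the paper labels with a protein name, with values for at most 30 that had no overlap, and 2 unnamed genes a direction past the adjusted threshold. A name was looked up only for a gene that had passed. The RefSeq gene table at hand matched 0 of the identifiers, and no sequence is shown. The comparison and the lists were chosen with earlier results of these data known. The fit was tested on simulated data. Alternatives were the fish in the fit, low-value filters, pseudocounts, scaling, a trended prior, genes listed at 0, a replicate block, and leaving out each fish. Figures were drawn with matplotlib 3.10.9 in Python 3.11.15.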

Additional observations from a re-analysis of the deposited data

Results flagged for a closer look

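C-type lysozyme (CI01000018_06021105_06025859) was also high in fish that stand on neither side of the comparisons above, though the fit included them. In the 6 fish treated at 6‰ salinity it ran from 13.8 to 43.5 FPKM with a median of 19.34, above the con fish at 2.55, 2.58 and 2.90 FPKM in every one of the 6. The median was 32.5 FPKM in the 3 symptomatic and 14.8 FPKM in the 3 asymptomatic fish at 6‰. The difference in lysozyme was not tested here. The unnamed loci that fell, CI01000249_00110149_00111546 and CI01000171_00732682_00786057, lay below every con fish in all 6, at 0.975 to 2.83 and 1.31 to 2.93 FPKM. The unnamed loci that rose, CI01000426_00003780_00016198 and CI01092843_00000252_00000857, were not above every con fish in all 6. They ran from 7.01 to 70.8 and from 1.56 to 18.0 FPKM. These differences were not tested either.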

How the results depend on the processing

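With Benjamini-Hochberg adjustment (limma) the DEGs between 3‰-treated symptomatic and con fish numbered 10 (8 higher, 2 lower), those between symptomatic and asymptomatic fish 0 and those among the 15 NLR loci 0. The adjusted calls numbered 33 with only the 6 fish in the fit and 6 with the replicate block. With the replicate block the DEGs numbered 1643 and 48 of the 50 named DEGs were called. Deviations of same-numbered con and symptomatic fish from their group means correlated at r = -0.38, -0.17 and -0.47 across genes. On the first principal component con fish 3 and symptomatic fish 3 each lay toward the other group, so these values cannot tell whether the numbers pair the fish. Leaving out each fish gave 1296 to 2496 DEGs, 847 to 1523 higher, 443 to 1077 lower, 0 to 17 past the adjusted threshold and 2 to 3 NLR loci, and 1041 to 1924 DEGs between symptomatic and asymptomatic fish. Without symptomatic fish 3 and con fish 3 together, added after seeing the data, there were 4091 DEGs, 2367 higher and 1724 lower, and 56 past the adjusted threshold. The other settings kept the counts within 1.5 times, from 1462 DEGs at a mean of at least 1 FPKM to 1986 with a pseudocount of 0.1. Pseudocounts of 0.1 and 0.01 called 48 and 45 of the 50 named DEGs, and at 0.01 TAP2, both neoverrucotoxin genes, the GVINP1-like gene that fell and meiotic nuclear division 1-like protein were lost. With only the 6 fish in the fit 47 were called, and median-ratio and quantile scaling called all 50.

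The sign turned in 5 NLR loci that were not DEGs. CI01000358_00550693_00557903 gave -0.0296 with median-ratio scaling and -0.0439 with quantile normalization, and from -0.0707 to 0.12 with a fish left out. CI01000152_01231478_01232527 gave -0.00256 with quantile normalization and from -0.27 to 0.27 with a fish left out, and -0.48 without both fish 3. CI01000433_00039954_00060508 ran from -0.21 to 1.05 and CI01000070_04844701_04867804 from -0.38 to 0.0646 with a fish left out. CI01117969_00000011_00000940 ran from 0.01 to 0.17 with a fish left out and gave -0.0327 without both fish 3. The causes were not tested. The reads per gene are unknown, so the counting error of genes near 0 FPKM was not worked out.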
